A study of Mus musculus with 24 samples.

Results

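Kidney mRNA levels of 10 genes of mineral handling were followed after myocardial infarction (MI) in mice. The genes are Kl, Fgfr1, Pth1r, Slc34a1, Slc34a3, Cyp27b1, Cyp24a1, Vdr, Trpv5 and Calb1, and they were chosen by name for their role in the klotho, vitamin D, phosphate and calcium pathways. Earlier results of these data were known when they were chosen. All 10 passed the filter on low counts, so that 10 of the 12780 genes tested and of the 56941 genes in the table are described. Male C57BL/6J wild-type mice aged 8–11 weeks had the left anterior descending coronary artery (LAD) ligated permanently, and their kidneys were taken 5d or 28d post-MI. Sham-operated mice had the same surgery without ligation, and their kidneys were collected at 5d and served as the control for both times. Kidneys at 28d post-MI thus differ from sham kidneys in time since surgery as well as in infarction, and the part of each cannot be told apart. Of the 24 kidneys, 22 had counts that could be assigned, which were all 8 sham, 8 of the 9 from 5d and 6 of the 7 from 28d. Each library comes from the kidney tissue of a separate mouse.

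The kidney sets how much phosphate and calcium leaves the body, and it makes the active form of vitamin D. Klotho (Kl) is the co-receptor that lets the bone hormone FGF23 act through Fgfr1, while parathyroid hormone acts through Pth1r. Both hormones lower phosphate reuptake in the proximal tubule, where Slc34a1 and Slc34a3 carry phosphate into the cell. Cyp27b1 makes active vitamin D, Cyp24a1 breaks it down, and Vdr is the nuclear receptor that binds it. In the distal tubule, calcium enters through the channel Trpv5 and is ferried across the cell by calbindin (Calb1).

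Libraries held between 2280618 and 3786275 counts, and where a kidney had 0 counts of a gene the true number may be as high as 3, by counting error alone. Proximal tubule markers were abundant in every kidney, with a summed level over 15 genes of 12397 to 17990 CPM (counts scaled to a common library size). Marker genes of the adrenal cortex, which lies beside the kidney, had a summed level of 827 CPM in sham kidney 6, 1048 CPM in sham kidney 2 and 99.9 CPM in 5d post-MI kidney 5, against at most 10.5 CPM in the other 19 kidneys. Results without these 3 kidneys are given beside those that they change. Erythroid markers summed to 5000 to 19129 CPM at 5d post-MI and to 2219 to 4153 CPM in sham kidneys, and their part in the results was not tested.

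Promoter sequence was at hand in RefSeq (GRCm38.p6) for 7 of the 10 genes. Those of Kl and Slc34a1 are shown, a pair that varied together across kidneys, as their correlation further on shows. Slc34a1 and Pth1r varied together more closely, and the windows of Pth1r are not shown. Each is the 250 bases before the transcription start, read 5′ to 3′ on the + strand, at chr5:150952357-150952606 for Kl and chr13:55399398-55399647 for Slc34a1. Capitals mark a nuclear receptor half-site, the kind of short element that Vdr and its partner Rxra bind in pairs, searched on both strands as the usual form AGGTCA, as the variant AGTTCA, or with a leading G in place of A, namely as GGGTCA or likewise as GGTTCA.

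Kl: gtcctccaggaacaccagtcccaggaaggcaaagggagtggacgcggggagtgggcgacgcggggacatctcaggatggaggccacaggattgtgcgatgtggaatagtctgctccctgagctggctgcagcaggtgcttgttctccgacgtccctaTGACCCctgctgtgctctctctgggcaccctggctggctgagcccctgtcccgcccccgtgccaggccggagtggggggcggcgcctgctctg

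Slc34a1: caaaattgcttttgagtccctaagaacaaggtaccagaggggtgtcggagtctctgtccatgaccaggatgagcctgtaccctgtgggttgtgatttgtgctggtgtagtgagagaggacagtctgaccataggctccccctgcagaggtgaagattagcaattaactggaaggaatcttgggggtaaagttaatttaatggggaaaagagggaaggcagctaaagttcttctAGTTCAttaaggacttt

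Both windows overlap no annotated exon, and that of Slc34a1 lies within the longer gene span of GENCODE M21. The Kl window holds GGGTCA on the − strand, starting 93 bases before the transcription start, and the Slc34a1 window holds AGTTCA on the + strand, starting 17 bases before it. A half-site of this kind was found for 4 of the 7 genes and in 12694 of 32851 promoter windows of the same length (38.6%). These shares are not on the same scale, since Pth1r counts as 1 gene but has several windows, all with 0 half-sites. The presence of a half-site here is thus a description of the letters and not of a binding site.

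None of the 10 genes passed the test for differential expression in any of the 3 comparisons. With edgeR's quasi-likelihood test and a Benjamini-Hochberg adjusted p-value under 0.05, 0 of 10 genes were called at 5d post-MI against sham, where 0.0704% of all genes tested were called. Likewise 0 of 10 were called at 28d post-MI against sham (0.0235% of all genes) and 0 of 10 at 28d against 5d post-MI (0.415% of all genes). At an unadjusted p under 0.05, Slc34a1 and Slc34a3 were both lower at 5d post-MI than in sham, which makes 2 of 10 genes where 7.9% of all genes passed. Against sham at 28d, Pth1r was higher and Slc34a3 lower at that level, 2 of 10 genes where 8.68% of all genes passed. Between 28d and 5d post-MI, Kl, Cyp24a1 and Slc34a1 were higher, 3 of 10 genes where 9.05% of all genes passed. The same numbers, 2, 2 and 3 of 10, passed the unadjusted level by DESeq2 and by limma's voom, where 6.74%, 7.62% and 7.65% of all genes did so by DESeq2 and 8.1%, 8.48% and 8.9% by voom. The groups overlapped for each of the 10 genes in each comparison, whereas 0.0548%, 0.258% and 0.344% of all genes had groups that did not overlap. The median log2 fold change of the 10 genes was −0.12 at 5d and 0.0022 at 28d against sham and 0.13 at 28d against 5d, beside 0.00018, −0.0012 and −0.0046 over all genes tested.

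**Figure D1:**
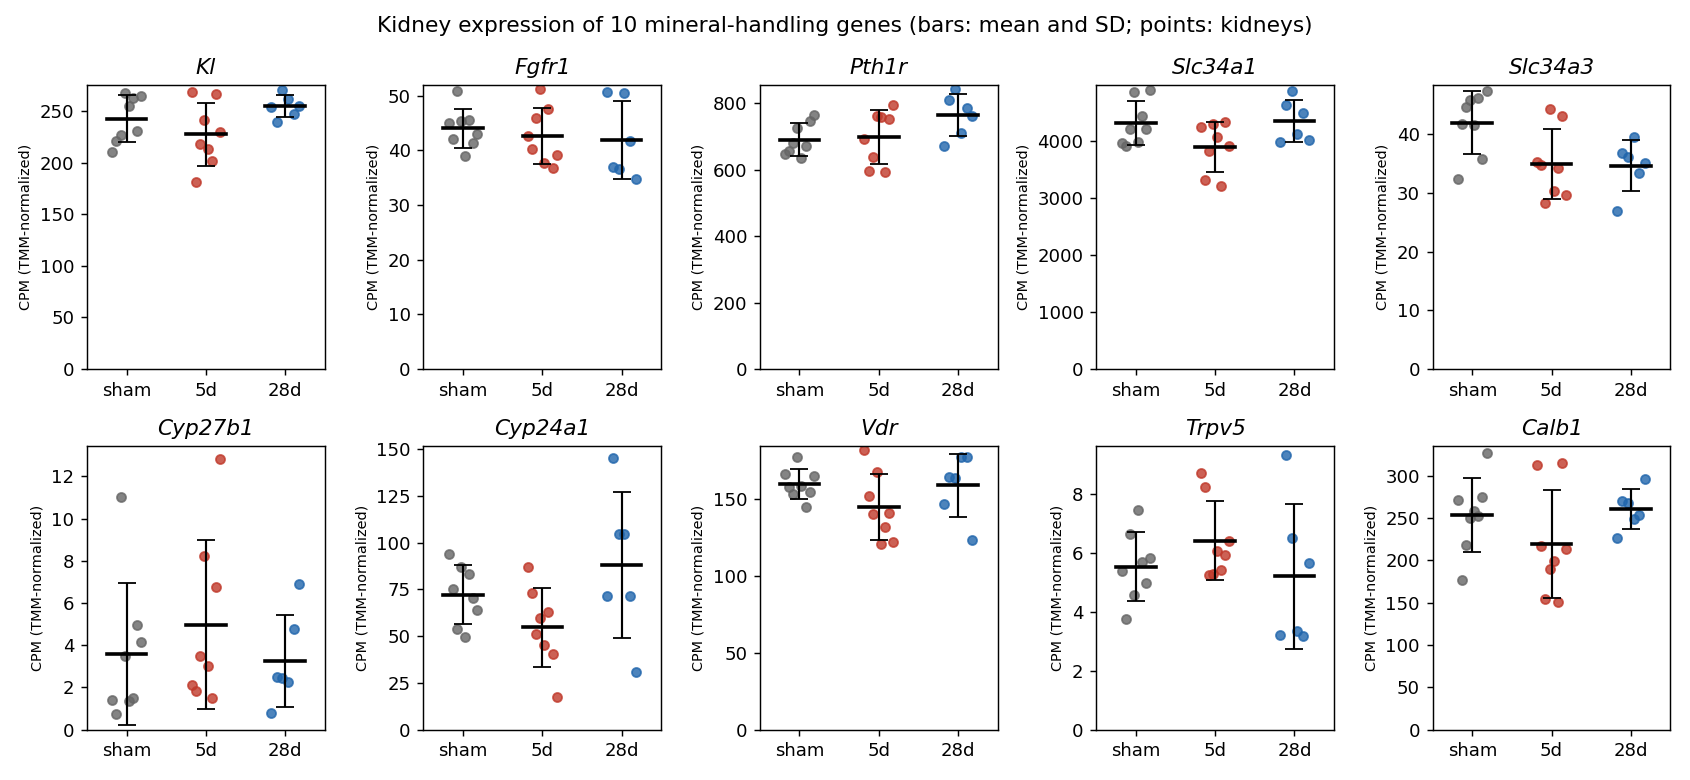
CPM (TMM-normalized, linear axes from 0) of the 10 genes in each kidney of sham, 5d post-MI and 28d post-MI mice; points are kidneys, thick lines means and error bars SD (n = 8, 8 and 6). The 3 groups overlap in every panel, and the widest spread within groups is that of Cyp27b1, Cyp24a1 and, at 28d, Trpv5.

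Klotho mRNA (Kl, ENSMUSG00000058488, GRCm38 chromosome 5, 150952607 to 150993817, + strand) was abundant and varied little. It ranged from 210 to 268 CPM in sham kidneys (median 243), from 181 to 269 CPM at 5d post-MI (median 224) and from 240 to 271 CPM at 28d post-MI (median 255). The lowest kidneys of all were 5d post-MI kidney 2 at 181 CPM and 5d post-MI kidney 7 at 202 CPM, and the 28d kidneys lay within the upper part of the sham range or just above it. The mean was 243 ± 22.7 CPM (SD, n = 8) in sham, 228 ± 30.6 CPM (n = 8) at 5d and 255 ± 10.9 CPM (n = 6) at 28d. Kl differed from sham by a log2 of −0.09 (SE 0.07) at 5d and 0.07 (SE 0.07) at 28d, with edgeR adjusted p = 0.789 and 0.852. All 6 kidneys at 28d were above the 5d mean, a log2 difference of 0.16 (SE 0.07, edgeR adjusted p = 0.472), which was 0.095 with the mean of the proximal tubule markers as a covariate. The 95% interval of the fold change from sham was 0.854 to 1.03 at 5d and 0.950 to 1.16 at 28d. In whole kidney RNA, fewer cells of a type and less RNA per cell cannot be told apart.

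Fgfr1 (ENSMUSG00000031565, GRCm38 chromosome 8, 25513654 to 25575718, + strand), the FGF receptor that klotho pairs with, had the flattest course. It measured 38.9 to 50.8 CPM in sham kidneys (median 44.0), 36.8 to 51.1 CPM at 5d (median 41.4) and 34.8 to 50.7 CPM at 28d (median 39.3). The ranges of the groups lay almost on top of each other. The log2 fold change was −0.04 (SE 0.08) at 5d and −0.07 (SE 0.09) at 28d against sham, and edgeR's adjusted p was 0.955 and 0.895. Between 28d and 5d it was −0.04 (SE 0.09, edgeR adjusted p = 0.953), and without the 3 kidneys with adrenal cortex markers it was 0.0065. The other FGF receptors of the phosphate list had edgeR adjusted p-values of 0.681 or more in each comparison, and the ligand Fgf23, a bone hormone, had 0 counts in all 22 kidneys.

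Pth1r (ENSMUSG00000032492, GRCm38 chromosome 9, 110722085 to 110747145, − strand), the parathyroid hormone receptor, measured 636 to 764 CPM in sham (median 675), 594 to 795 CPM at 5d (median 723) and 673 to 843 CPM at 28d (median 774). Of the 28d kidneys, 3 were above every sham kidney, and the groups otherwise overlapped. The difference between 28d and sham was a log2 of 0.14 (SE 0.06), or a fold of 1.11 with a 95% interval of 1.01 to 1.21 (edgeR adjusted p = 0.530). At 5d it was 0.01 (SE 0.06, edgeR adjusted p = 0.975), a value whose sign changed without the 3 kidneys with adrenal cortex markers (−0.023). Proximal tubule markers as a whole had a median summed level of 14839 CPM in sham and 16537 CPM at 28d. With the mean of these markers as a covariate, the 28d difference of Pth1r was 0.017. Pth1r overlaps Myl3 on the opposite strand at its 5′ end, away from the 3′ end that the libraries read, and Myl3 had 192 counts over all kidneys.

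The sodium-phosphate cotransporter Slc34a1 (ENSMUSG00000021490, GRCm38 chromosome 13, 55398187 to 55415592, + strand) carries most of the phosphate that the proximal tubule takes back. It measured 3918 to 4902 CPM in sham kidneys (median 4219), 3207 to 4338 CPM at 5d (median 3986) and 3985 to 4875 CPM at 28d (median 4315). At 5d, 4 of 8 kidneys were below every sham kidney, the lowest being 5d post-MI kidney 7 at 3207 CPM and kidney 2 at 3315 CPM, while the remaining 4 lay within the sham range. Kidney 2 had the lowest summed proximal tubule markers of all kidneys (12397 CPM), and kidney 7 had 14968 CPM of them. Collecting duct markers were highest in kidney 7 (1730 CPM, against at most 1186 CPM in sham), and their part in these values was not tested. The 28d kidneys lay within the sham range. The mean of 4313 ± 389 CPM in sham (SD, n = 8) stood against 3901 ± 435 CPM at 5d (n = 8), a log2 fold change of −0.14 (SE 0.07). The edgeR adjusted p was 0.598, and the 95% interval of the fold was 0.822 to 0.995. At 28d the difference from sham was 0.01 (SE 0.07, edgeR adjusted p = 0.985) and that from 5d was 0.16 (SE 0.07, adjusted p = 0.513). With proximal tubule markers as a covariate, the 28d difference was −0.12 from sham and 0.058 from 5d, and without the 3 kidneys with adrenal cortex markers that from sham was −0.0010. Over all the alternatives tried, the log2 fold change of Slc34a1 from sham at 5d was −0.18 to −0.11, and its lowest edgeR adjusted p was 0.0660. In the fits that left out 1 kidney the lowest edgeR adjusted p was 0.450. The adjusted p was 0.700 by DESeq2 and 0.587 by limma's voom. Slc34a1 overlaps Pfn3 on the opposite strand near its 3′ end, and Pfn3 had 0 counts in all kidneys.

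Slc34a3 (ENSMUSG00000006469, GRCm38 chromosome 2, 25228898 to 25234364, − strand), a further cotransporter of the same segment with a smaller share of the transport in mice, had the lowest p of the 10 genes at both times against sham. It measured 32.3 to 47.4 CPM in sham kidneys (median 43.2), 28.4 to 44.4 CPM at 5d (median 34.5) and 27.0 to 39.6 CPM at 28d (median 35.6). All 6 kidneys at 28d and 6 of 8 at 5d were below the sham mean of 42.0 ± 5.36 CPM (SD, n = 8), yet only 1 and 3 of them were below the lowest sham kidney. The log2 fold change was −0.26 (SE 0.09, edgeR adjusted p = 0.458) at 5d and −0.27 (SE 0.10, adjusted p = 0.444) at 28d. The comparisons share the sham kidneys, so these values are not independent of each other. The 95% interval of the fold was 0.733 to 0.956 at 5d and 0.718 to 0.961 at 28d. The difference from 5d to 28d was −0.01 (SE 0.11, edgeR adjusted p = 0.991), and it was 0.049 without the 3 kidneys with adrenal cortex markers. Each Slc34a3 value rests on 67 to 171 counts, and counting error alone gives a coefficient of variation of 8.76% in sham kidneys beside the 12.8% observed.

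**Figure D2:**
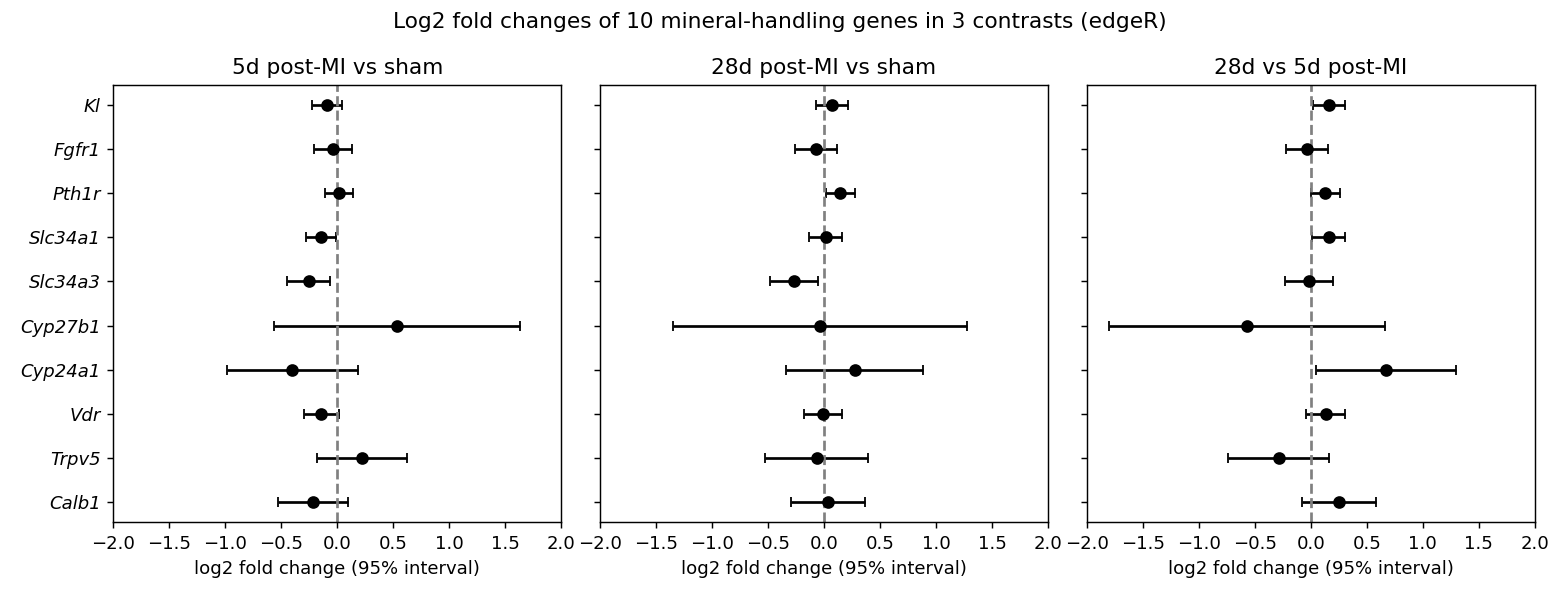
Log2 fold change (horizontal axis) of the 10 genes in 3 panels, one for each time compared with sham and one for 28d compared with 5d; points are edgeR estimates and bars their 95% intervals, before adjustment for the genes tested. Most intervals include 0, and the widest are those of Cyp27b1, for which at most 42 counts were seen in a kidney.

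Cyp27b1 (ENSMUSG00000006724, GRCm38 chromosome 10, 127048250 to 127053006, + strand), the 1α-hydroxylase that completes active vitamin D, had few counts. It had 2 to 42 counts per kidney, which is 0.751 to 11.1 CPM in sham (median 2.51), 1.505 to 12.8 CPM at 5d (median 3.27) and 0.805 to 6.90 CPM at 28d (median 2.47). A few kidneys stood high, namely sham kidney 3 at 11.1 CPM and 5d post-MI kidneys 9 and 5 at 12.8 and 8.23 CPM, and the rest lay at or below 6.90 CPM. The coefficient of variation within groups was 94.1%, 80.3% and 66.6%, and counting error alone would give 30.5%, 25.8% and 33.0%. The log2 fold change was 0.53 (SE 0.53, edgeR adjusted p = 0.874) at 5d and −0.04 (SE 0.63, adjusted p = 0.997) at 28d against sham. The 95% interval of the fold from 0.677 to 3.10 at 5d and from 0.393 to 2.42 at 28d covers both an increase and a decrease. The 5d value was 0.14 without 5d post-MI kidney 9 and 0.92 without sham kidney 3. Without sham kidney 3 the log2 fold change of 28d from sham was 0.34, without 28d post-MI kidney 7 it was −0.44, and with the mean of the proximal tubule markers as a covariate it was −0.67. Between 28d and 5d it was −0.57 (SE 0.59, edgeR adjusted p = 0.850), which became −1.09 with that covariate, −0.97 without 28d post-MI kidney 7 and −0.18 without 5d post-MI kidney 9.

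Cyp24a1 (ENSMUSG00000038567, GRCm38 chromosome 2, 170482708 to 170497145, − strand), the 24-hydroxylase that inactivates vitamin D and is itself a target of Vdr, spread most among the better measured genes. It measured 49.8 to 93.8 CPM in sham (median 72.9), 17.4 to 86.9 CPM at 5d (median 55.5) and 30.7 to 145 CPM at 28d (median 88.0). The lowest value was that of 5d post-MI kidney 9 and the highest that of 28d post-MI kidney 2, and at 28d 3 of 6 kidneys were above every sham kidney while kidney 7 was below all of them. The mean was 72.1 ± 15.7 CPM (SD, n = 8) in sham, 54.6 ± 21.3 CPM (n = 8) at 5d and 88.0 ± 39.1 CPM (n = 6) at 28d. The difference between 28d and 5d was a log2 of 0.68 (SE 0.30), or a fold of 1.60 with a 95% interval of 1.04 to 2.46 (edgeR adjusted p = 0.513). Against sham it was −0.40 (SE 0.28, edgeR adjusted p = 0.792) at 5d and 0.28 (SE 0.29, adjusted p = 0.865) at 28d. The 28d value was 0.068 without 28d post-MI kidney 2 and 0.46 without 28d post-MI kidney 7. The SD within groups was 21.7%, 38.9% and 44.4% of the mean, where counting error would give 6.62%, 7.83% and 6.55%. Cyp24a1 overlaps Pfdn4 on the opposite strand at its 5′ end only, and the strand setting of the counting is not given in the sources used here.

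Vdr (ENSMUSG00000022479, GRCm38 chromosome 15, 97854425 to 97910630, − strand), the vitamin D receptor, measured 144 to 177 CPM in sham (median 158), 120 to 181 CPM at 5d (median 140) and 124 to 177 CPM at 28d (median 164). At 5d, 5 of 8 kidneys were below every sham kidney, but kidney 1 was above all of them, and at 28d kidney 7 was low at 124 CPM. The SD was 9.84 CPM in sham (n = 8), 21.5 CPM at 5d (n = 8) and 20.6 CPM at 28d (n = 6). The log2 fold change from sham was −0.14 (SE 0.08, edgeR adjusted p = 0.673) at 5d and −0.01 (SE 0.08, adjusted p = 0.991) at 28d. From 5d to 28d it was 0.13 (SE 0.08, edgeR adjusted p = 0.686).

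Trpv5 (ENSMUSG00000036899, GRCm38 chromosome 6, 41652173 to 41680769, − strand), the calcium entry channel of the distal tubule, was counted 8 to 27 times per kidney. It measured 3.76 to 7.45 CPM in sham (median 5.54), 5.25 to 8.73 CPM at 5d (median 5.99) and 3.18 to 9.31 CPM at 28d (median 4.50). At 28d, 3 of 6 kidneys lay below every sham kidney at 3.18 to 3.37 CPM, while kidney 2 had the highest value of all at 9.31 CPM. The log2 fold change was 0.22 (SE 0.20, edgeR adjusted p = 0.849) at 5d and −0.07 (SE 0.23, adjusted p = 0.974) at 28d against sham, and −0.29 (SE 0.22, adjusted p = 0.780) between 28d and 5d. Without 28d kidney 2 the 28d difference from sham was −0.31. Trpv6, the related channel, had 58 counts in all 22 kidneys together and was below the filter on low counts.

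Calb1 (ENSMUSG00000028222, GRCm38 chromosome 4, 15881264 to 15908064, + strand), the calcium-binding shuttle of the same cells, measured 177 to 327 CPM in sham (median 256), 151 to 316 CPM at 5d (median 206) and 226 to 297 CPM at 28d (median 261). At 5d, kidneys 1 and 8 measured 313 and 316 CPM and the other 6 below the sham mean, whereas the 28d kidneys formed a narrow group inside the sham range. The SD was 43.4 CPM (n = 8), 63.6 CPM (n = 8) and 23.8 CPM (n = 6) in the same order. The log2 fold change was −0.22 (SE 0.15, edgeR adjusted p = 0.787) at 5d and 0.03 (SE 0.16, adjusted p = 0.983) at 28d against sham, and 0.25 (SE 0.16, adjusted p = 0.697) between 28d and 5d. Without the 3 kidneys with adrenal cortex markers the 28d difference from sham was −0.037.

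Ratios within a kidney describe the pairs of opposed or joint function. Each was taken as a difference of log2 CPM with a prior count of 2. The prior lowers a ratio whose second gene has few counts, as with Cyp27b1 and Trpv5. The log2 ratio of Cyp24a1 to Cyp27b1 was 4.39 ± 1.16 (SD, n = 8) in sham, 3.45 ± 1.56 (n = 8) at 5d and 4.52 ± 1.39 (n = 6) at 28d, and its lowest value, 0.42, was that of 5d post-MI kidney 9. The log2 ratio of Slc34a1 to Slc34a3 was 6.67 ± 0.15, 6.78 ± 0.23 and 6.95 ± 0.18, and that of Calb1 to Trpv5 was 5.36 ± 0.28, 4.93 ± 0.31 and 5.57 ± 0.50. The spreads of the groups overlapped for each ratio. These ratios compare the same genes between kidneys and say nothing of which gene of a pair is more abundant per transcript.

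Several of the genes varied together among kidneys of the same group. After the mean of each group was removed, log2 CPM was correlated over the 22 kidneys for 10 pairs of linked function. Two-sided permutation tests shuffled kidneys within groups. The pairs were picked with earlier results of these data known, so the adjusted p-values are not those of a choice made before any result. Slc34a1 and Pth1r, both of the proximal tubule, had Pearson's r = 0.819 (permutation p = 4e-05, adjusted over the 10 pairs 0.0004) and Spearman's rho = 0.776 (permutation p = 9e-05, adjusted 0.0009). After both were regressed on proximal tubule markers, r was 0.496 and no longer passed (adjusted permutation p = 0.0766). The same sign was seen within each group, with r of 0.780 in sham, 0.821 at 5d and 0.884 at 28d. Without the kidneys with the most extreme Slc34a1 values, 5d post-MI kidneys 2 and 7, r was 0.695 (permutation p = 0.00139). Kl and Slc34a1 had r = 0.732 (permutation p = 0.00048, adjusted 0.0024) and rho = 0.726 (permutation p = 0.00033, adjusted 0.00165), and r was 0.664 (permutation p = 0.00421) without 5d post-MI kidneys 1 and 2. Within groups r was 0.765 in sham and 0.861 at 5d, but 0.0499 among the 28d kidneys, in which Kl hardly varied. Regressed on proximal tubule markers, Kl and Slc34a1 had r = 0.582, with an adjusted permutation p of 0.0476, close to the threshold of 0.05.

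For vitamin D, the enzyme that makes the hormone and the one that breaks it down were opposed. Cyp27b1 and Cyp24a1 had r = −0.568 (permutation p = 0.00545, adjusted 0.0136), with r of −0.371 in sham, −0.779 at 5d and −0.548 at 28d. Spearman's rho was −0.450 (permutation p = 0.0439, adjusted 0.0731). The relation rested in part on sham kidney 3 and 5d post-MI kidney 9, without which r was −0.411 (permutation p = 0.0981), and it no longer passed without 5d post-MI kidney 9 alone (r = −0.445, adjusted permutation p = 0.0629) or 28d post-MI kidney 7 alone (r = −0.505, adjusted permutation p = 0.0554). The low counts of Cyp27b1 add counting error to each of these values. Vdr and Cyp24a1 varied in the same direction, with r = 0.693 (permutation p = 0.00191, adjusted 0.00637) and rho = 0.630 (permutation p = 0.00513, adjusted 0.0128). Without 5d post-MI kidney 1 and 28d post-MI kidney 7, r was 0.4664 (permutation p = 0.0956), and without 28d post-MI kidney 7 alone it was 0.572 (adjusted permutation p = 0.0572), so this relation rests on those kidneys as well.

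**Figure D3:**
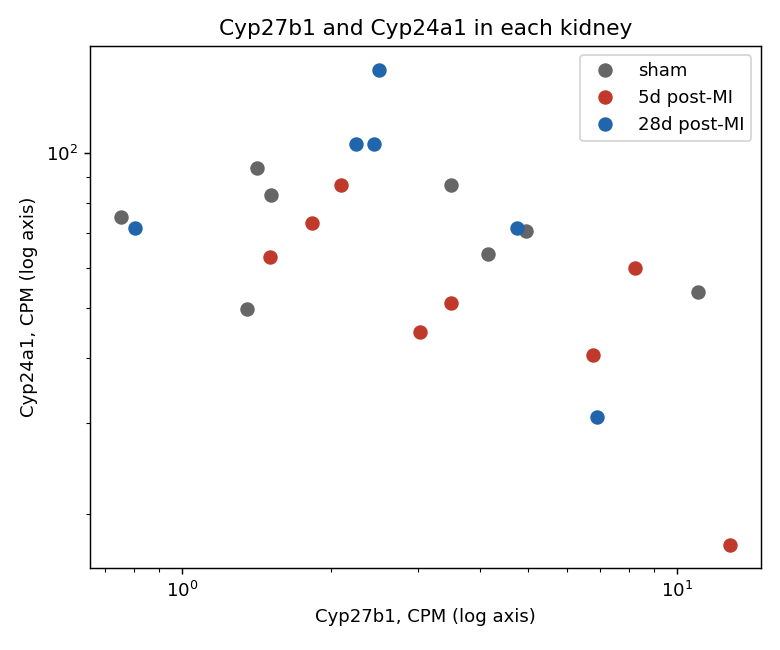
CPM of Cyp24a1 (vertical, log axis) against Cyp27b1 (horizontal, log axis) in each of 22 kidneys, coloured by group. The 5d post-MI kidney at the lower right has the highest Cyp27b1 (12.8 CPM) and the lowest Cyp24a1 (17.4 CPM), and kidneys with Cyp24a1 above 100 CPM are all from 28d post-MI, with Cyp27b1 between 2.24 and 2.51 CPM.

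In the distal tubule, Calb1 and Trpv5 had r = 0.437 (permutation p = 0.00914, adjusted 0.0183) and rho = 0.605 (permutation p = 0.00298, adjusted 0.00993), with r between 0.440 and 0.658 within the groups. Without 5d post-MI kidneys 1 and 8, r was 0.469 (permutation p = 0.0136). It fell short of the threshold without sham kidney 2 (r = 0.359, adjusted permutation p = 0.0798), without 5d post-MI kidney 1 (r = 0.360, adjusted permutation p = 0.0591) and without the 3 kidneys with adrenal cortex markers (r = 0.344, adjusted permutation p = 0.105). Trpv5 varied by 20.9% of its mean in sham and at 5d, no more than the 24.2% and 22.9% of counting error. At 28d it varied by 47.2%, beside 26.6%. The other 5 pairs had adjusted permutation p-values over 0.05. They were Kl with Calb1 (r = 0.552, adjusted permutation p = 0.0570), Kl with Pth1r (r = 0.490, adjusted permutation p = 0.0667), Slc34a1 with Slc34a3 (r = 0.450, adjusted permutation p = 0.0667), Kl with Cyp27b1 (r = 0.239, adjusted permutation p = 0.361) and Kl with Fgfr1 (r = −0.0530, adjusted permutation p = 0.809). Over all 45 pairs of the 10 genes, a family added after the first results were seen, r ranged from −0.568 to 0.819 with a median of 0.230, 34 pairs were positive, and 5 had an adjusted permutation p under 0.05. These were Slc34a1 with Pth1r, Kl with Slc34a1, Vdr with Cyp24a1, Pth1r with Cyp27b1 (r = 0.656, adjusted permutation p = 0.0235) and Cyp27b1 with Cyp24a1 (adjusted permutation p = 0.0490).

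**Figure D4:**
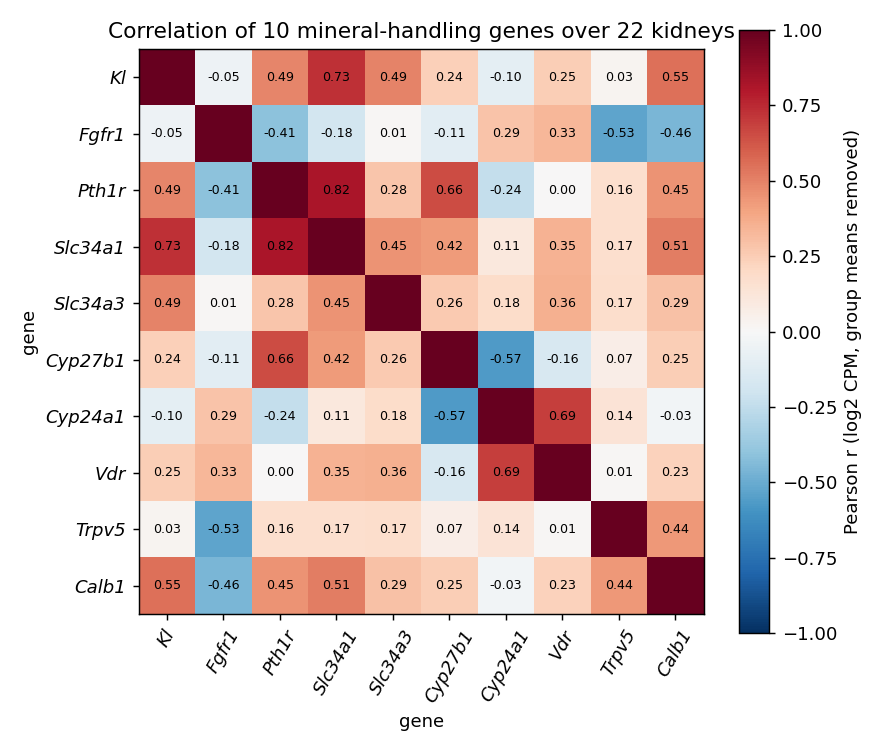
Pearson's r between the 10 genes over 22 kidneys (log2 CPM, group means removed), from blue at −1 to red at 1. The strongest red squares off the diagonal are Pth1r with Slc34a1 (0.82) and Kl with Slc34a1 (0.73). The strongest blue squares are Cyp27b1 with Cyp24a1 (−0.57) and Fgfr1 with Trpv5 (−0.53), and the diagonal is 1 by definition.

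Proximal tubule markers moved with several of these genes. The mean log2 CPM of the markers that are not among the 10 genes correlated over the 22 kidneys with Slc34a1 (r = 0.80), Pth1r (r = 0.80), Cyp27b1 (r = 0.63), Kl (r = 0.55) and Slc34a3 (r = 0.49). Calb1, of the distal tubule, had r = 0.25. The lowest values were those of Cyp24a1 (r = −0.16), Fgfr1 (r = −0.15), Trpv5 (r = 0.03) and Vdr (r = 0.04). These values share library and depth with the genes and are given as a description.

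Genes with the most similar pattern were found by the same r over 22 kidneys, the 3 highest of the other 12779 genes tested for each of the 10. Kl was followed by Acsm2 (r = 0.84), itself one of the proximal tubule markers, Aldh4a1 (r = 0.83) and Ephx2 (r = 0.80). For Slc34a1 they were Khk (r = 0.85), Slc22a18 and Glyat (both r = 0.84), and for Pth1r they were Ssr2, Glyat (both r = 0.87) and Trpv4 (r = 0.86). Glyat thus stood near both genes, which are themselves correlated. Calb1 was most like Slc8a1 (r = 0.86), the sodium-calcium exchanger that moves calcium out of the same cells, ahead of Wdr37 (r = 0.80) and Pdzd11 (r = 0.76). Trpv5 was most like Tspan33 (r = 0.78), Atp2a2, a calcium pump of the endoplasmic reticulum (r = 0.76), and Sipa1l1 (r = 0.74). Cyp27b1 was followed by Baiap2 (r = 0.84), Sardh (r = 0.77) and Cpt1a (r = 0.75), and Cyp24a1 by Plekhf2, ENSMUSG00000120162 and Gm20342 (r = 0.78 to 0.77). For Vdr they were Znrd1as, Chmp1b and AC132455.2 (r = 0.73 to 0.72), for Slc34a3 Urah, Mmachc and Paqr9 (r = 0.73 to 0.69) and for Fgfr1 Stk11ip, Fnip2 and Zfp563 (r = 0.85 to 0.77). Each was picked for its high r among all genes, so the values carry no test.

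The wider pathways were read from 4 lists of other phosphate, vitamin D, calcium and magnesium genes, with 59 of 70 genes past the filter on low counts. At 5d post-MI 0 of 59 were called by edgeR (0.0704% of all genes) and 9 had an unadjusted p under 0.05 (7.9% of all genes), of which 6 were higher and 3 lower than in sham. At 28d post-MI 0 of 59 were called (0.0235% of all genes) and 8 passed the unadjusted level (8.68% of all genes), each of them higher than in sham. For 28d against 5d, 1 of 59 was called, Calr (0.415% of all genes), and 3 passed the unadjusted level (9.05% of all genes). The median log2 fold change of the 59 genes was −0.024, 0.049 and 0.029 in this order.

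Calr, calreticulin, a calcium-binding chaperone of the endoplasmic reticulum, measured 505 to 632 CPM in sham (median 566), 472 to 589 CPM at 5d (median 512) and 536 to 708 CPM at 28d (median 637). At 28d, 4 of 6 kidneys were above every 5d kidney. The 28d mean of 622 ± 60.7 CPM (SD, n = 6) and the 5d mean of 524 ± 44.1 CPM (n = 8) differed by a log2 of 0.25 (SE 0.06, edgeR adjusted p = 0.0477). The sham mean of 567 ± 45.2 CPM lay between them, and neither time passed the test against sham (edgeR adjusted p = 0.622 at 5d and 0.535 at 28d). The call was near the threshold, since it was made in 7 of 22 fits that left out 1 kidney and not made by limma's voom.

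In the phosphate list, 0 of 17 genes were called in each comparison, and the lowest p was that of Enpp1, which makes pyrophosphate, at 5d (log2 fold change 0.20, SE 0.08, edgeR adjusted p = 0.503). At 28d it was that of Nherf1, the scaffold that holds Slc34a1 at the brush border (0.18, SE 0.08, edgeR adjusted p = 0.514), and between the times that of the stanniocalcin Stc2 (−0.52, SE 0.24, adjusted p = 0.529). In the vitamin D list, 0 of 15 were called. Cubn, the cubilin receptor that with megalin takes up the vitamin D binding protein from the filtrate, measured 127 to 160 CPM at 5d and 111 to 136 CPM in sham (0.18, SE 0.06, edgeR adjusted p = 0.401). All 8 kidneys at 5d were above the sham mean of Cubn. Lrp2, megalin itself, was 0.14 (SE 0.05) above sham at 28d with an edgeR adjusted p of 0.444, and 0.14 (SE 0.05) above 5d with 0.371.

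In the calcium list, 1 of 16 genes was called in 1 comparison, Calr as above. Slc8a1 had a log2 fold change of −0.31 at 5d (SE 0.14, edgeR adjusted p = 0.587), and Klk1, a kallikrein of the connecting tubule with close paralogs, was 0.18 (SE 0.05) above sham at 28d with an edgeR adjusted p of 0.262, and 6 of 6 kidneys were above the sham mean. In the magnesium list, 0 of 11 were called. Egf, a growth factor that stimulates magnesium entry in the distal tubule, measured 575 to 785 CPM at 5d and 579 to 702 CPM at 28d against 469 to 646 CPM in sham. Each of the 14 post-MI kidneys was above the sham mean of Egf, with log2 fold changes of 0.21 (SE 0.06, edgeR adjusted p = 0.307) and 0.17 (SE 0.07, adjusted p = 0.428). Egf is also one of 9 thick ascending limb markers, whose summed level was 2101 to 3408 CPM in sham, 2731 to 3594 CPM at 5d and 2552 to 3198 CPM at 28d. Of these 9, 0 were called, and the median log2 fold change from sham was 0.14 at 5d and 0.11 at 28d. At an unadjusted p under 0.05, 4 at 5d (7.9% of all genes) and 3 at 28d (8.68% of all genes) were higher than sham. Egf itself was among them at both times. Their part in the Egf values was not tested. Trpm7, a magnesium channel, had the lowest p of its list between 28d and 5d (−0.13, SE 0.07, edgeR adjusted p = 0.623).

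**Figure D5:**
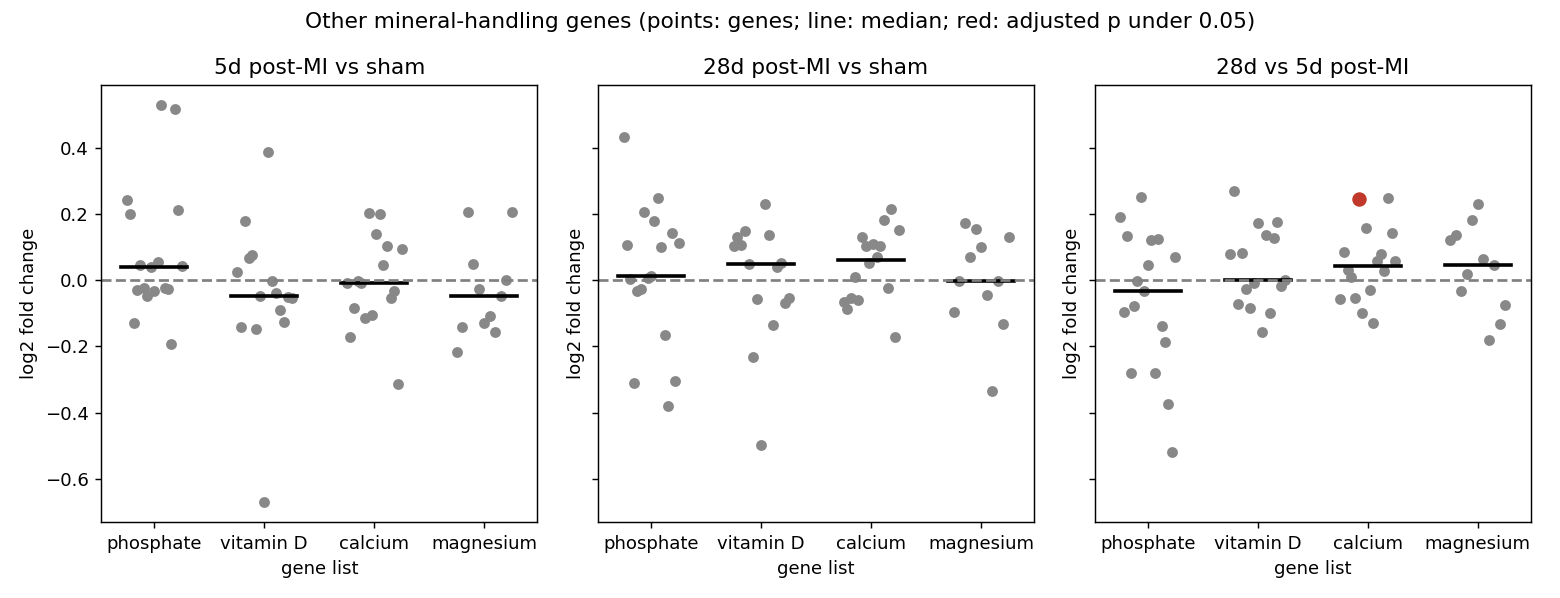
Log2 fold change (vertical axis) of 59 other phosphate, vitamin D, calcium and magnesium genes in the 3 comparisons; points are genes, lines list medians, and red marks an edgeR adjusted p under 0.05. The points scatter around 0 in each list, and the single red point is Calr at 28d against 5d post-MI.

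Marker levels of other tissues and states were as follows. Immediate early genes summed to 256 to 789 CPM at 5d, 704 to 1663 CPM in sham and 1086 to 2593 CPM at 28d. Of these, 8 of 10 were called by edgeR as higher at 28d than at 5d (0.415% of all genes), and 0 were called against sham at either time. By an unadjusted edgeR p under 0.05, 9 of 10 were lower at 5d than in sham (7.9% of all genes) and 4 of 10 higher at 28d (8.68% of all genes). Erythroid markers were called as higher at 5d than in sham for 4 of 5 genes (0.0704% of all genes). Between the times, 4 of 5 were called as lower at 28d than at 5d (0.415% of all genes). Adipocyte markers had a median summed level of 1379 CPM in sham, 1291 CPM at 5d and 668 CPM at 28d, with 0 of 9 called. At an unadjusted edgeR p under 0.05, 7 of 9 were lower at 28d than in sham (8.68% of all genes passed). At 5d 2 of 9 were lower (7.9% of all genes passed). Their median log2 fold change from sham was −0.99 at 28d and −0.56 at 5d. Collecting duct markers summed to 894 to 1186 CPM in sham, 817 to 1730 CPM at 5d and 1060 to 1178 CPM at 28d, and 0 of 11 were called in each comparison. Distal convoluted and connecting tubule markers summed to 3292 to 4753 CPM over all kidneys, and 0 of 10 were called in each comparison. Their part in the values of the 10 genes was not tested, apart from the proximal tubule covariate.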

How the data were processed

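Libraries of kidney RNA were made by MACE (Massive Analysis of cDNA Ends), which reads 3′ mRNA ends and tags molecules with unique identifiers. The authors trimmed reads with Cutadapt (v4.6), counted genes with HTSeq and deposited whole-number counts without normalization. The deposited tpm values are CPM scaled to each kidney's total by the authors and were not used. The paper names the mouse genome mm10, whereas the submitters' processing notes name mm39 and Bowtie2, and 51948 of 56941 identifiers are in GENCODE M21. Positions here are GRCm38 from that annotation. Of 48 value columns, 44 were assigned, and the other 4 share names between kidneys.

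edgeR 4.0.16 (R 4.3.3) kept genes by filterByExpr (minimum count 10), normalized by TMM and fitted 1 robust quasi-likelihood model over 3 groups, with two-sided F tests of 3 contrasts. SE is the log2 fold change over the square root of F, and CPM use TMM library sizes. Correlations and ratios used log2 CPM with a prior count of 2. Correlations were tested by 100000 permutations within groups, in Python 3.11.15 with numpy 2.4.6. Both steps were run on simulated data with planted effects larger than most of those seen here, so small effects were not covered. The simulated correlations used normal values and not low counts. Libraries held 2280618 to 3786275 counts, and chi-square per degree of freedom between kidneys of a group was 1.69 to 7.21 (71 pairs). Within a group, no library thus differed from another by counting error alone. Kidneys of different groups were not compared in this way. Alternatives were DESeq2 1.42.0, limma 3.58.1 voom, DESeq2 size factors, no count filter, only the groups compared, a replicate block, a proximal tubule covariate and leaving out each kidney. Leaving out kidneys with adrenal cortex markers above 50 CPM and the 45 pairs were chosen after seeing the data. The 10 genes, the lists and the pairs were chosen with earlier results of these data known. Named genes are the 10, the 3 most alike genes of each, and from each wider list those called and that of lowest p in each contrast. Fgf23, Trpv6 and the FGF receptors were added after their values were seen.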

Additional observations from a re-analysis of the deposited data

Results flagged for a closer look

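Cyp27b1 in sham kidney 3 measured 11.1 CPM (25 counts) and stood apart from the other 7 sham kidneys, the next of which had 4.97 CPM. Its gap to the next kidney was 0.591 of the group's range, above Dixon's 95% critical value for 8 samples. This was 1 of 30 groups of kidneys and genes examined, and chance alone marks about 1 group in 20. The same kidney had 53.9 CPM of Cyp24a1, near the low end of the sham range, and the smallest library of all at 2280618 counts.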

How the results depend on the processing

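The number of the 10 genes called was 0 in each comparison under each of the 30 other settings (8 alternatives and 22 fits that left out 1 kidney), where Cyp27b1 was below the filter in the fit of 28d and sham kidneys only, and DESeq2 gave Cyp27b1 and Trpv5 no adjusted p at 28d against 5d. Counts over all genes moved far more and are given as 5d against sham, 28d against sham and 28d against 5d, with main values of 9, 3 and 53. They were 35, 42 and 96 by DESeq2, 5, 5 and 50 by limma's voom, 80, 94 and 160 with no filter on low counts, 2, 31 and 26 with only the groups compared, and 2, 1 and 39 without the kidneys with adrenal cortex markers. With the proximal tubule covariate they were 13, 0 and 52. Leaving out 1 kidney gave 1 to 38 (38 without 5d post-MI kidney 1), 0 (without 28d post-MI kidney 2 or 7) to 29 (without sham kidney 8) and 41 to 84 (84 without 5d post-MI kidney 1). Of the wider lists, 1 gene was called at 5d (Egf) and 2 at 28d (Klb and Klk1) with no filter on low counts. Between 28d and 5d 0 were called by limma's voom, with DESeq2 size factors or with only the groups compared, and 0 to 1 when a kidney was left out. Calr was called without sham kidneys 3, 4 or 5, 5d post-MI kidneys 5 or 6 or 28d post-MI kidneys 1 or 7, and not without any of the others. With the proximal tubule covariate the gene called was Cldn10 in place of Calr.

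Same-numbered kidneys of different groups did not deviate together by this measure (r −0.127 to 0.0899, median 0.017, 0 of 18 pairs over 0.1). The labels name no batch, and any other link between these kidneys was not tested. A replicate block gave 2, 24 and 80 genes over all, 0 of the 10, and log2 fold changes of opposite sign for Fgfr1 (0.0049) and Pth1r (−0.020) at 5d and for Cyp27b1 at 28d (0.18 against sham, 0.070 against 5d).

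Other reversals were those of values near 0. By limma's voom, Cyp27b1 at 28d was 0.11. With the proximal tubule covariate, Pth1r at 5d was −0.017, and at 28d Kl was −0.020, Slc34a1 −0.12 and Calb1 −0.048. Without the kidneys with adrenal cortex markers, Pth1r at 5d was −0.023, Slc34a1 and Calb1 at 28d −0.0010 and −0.037, and between 28d and 5d Slc34a3 was 0.049 and Fgfr1 0.0065. Leaving out 1 kidney gave −0.013 to 0.046 for Pth1r at 5d, and at 28d against sham −0.44 to 0.34 for Cyp27b1, −0.044 to 0.053 for Vdr, −0.020 to 0.043 for Slc34a1, −0.025 to 0.096 for Calb1 and −0.31 to 0.038 for Trpv5. Between 28d and 5d it gave −0.052 to 0.049 for Slc34a3 and −0.098 to 0.010 for Fgfr1. The cause was not tested.

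Regression on proximal tubule markers gave r of −0.171 for Kl with Cyp27b1, 0.0326 for Kl with Fgfr1 and 0.496 for Slc34a1 with Pth1r, and the adrenal alternative gave 0.344 for Calb1 with Trpv5. By the regression r was also 0.582 for Kl with Slc34a1, 0.0981 for Kl with Pth1r and 0.116 for Slc34a1 with Slc34a3. For the remaining pairs it was −0.608 (Cyp27b1, Cyp24a1), 0.709 (Vdr, Cyp24a1), 0.443 (Calb1, Trpv5) and 0.511 (Kl, Calb1). Leaving out 1 kidney gave r of −0.631 to −0.445 (Cyp27b1, Cyp24a1), 0.572 to 0.733 (Vdr, Cyp24a1), 0.359 to 0.527 (Calb1, Trpv5), 0.447 to 0.671 (Kl, Calb1), 0.355 to 0.544 (Kl, Pth1r), 0.389 to 0.504 (Slc34a1, Slc34a3) and −0.128 to 0.0675 (Kl, Fgfr1). Kl with Calb1 passed without sham kidney 1, 5d post-MI kidney 2 or 28d post-MI kidneys 2 or 4, Slc34a1 with Slc34a3 without 5d post-MI kidneys 2 or 7 or 28d post-MI kidney 4, and Kl with Pth1r without 28d post-MI kidney 2. Slc34a1 with Pth1r and Kl with Slc34a1 passed in 22 of 22 such fits. DESeq2 size factors and a prior count of 0.5 changed no call of a pair. Counts per kidney were at most 42 for Cyp27b1, whose spread within groups was above counting error, and at most 27 for Trpv5, whose coefficient of variation was 20.9% in sham and at 5d where counting error would give 24.2% and 22.9%.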
